A study of Mus musculus with 20 samples.

Results

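Fbxo32, Trim63, Fbxo30, Fbxo31, Foxo1, Foxo3 and Mstn are 7 genes known for their part in the loss of striated muscle mass and in FOXO signaling. They were chosen by name, through the mouse gene symbol of each Ensembl identifier, and all 7 were listed among the 15956 genes measured in left ventricular tissue. The samples came from 20 male mice bought from the Jackson Laboratory, with 5 mice on each of 4 diets. Each library carries its own animal number within its diet, and the title of LP mouse 5 also names it as sample 2, a wording that no label explains. Mice fed the normal protein (NP) diet, which had neither added fat nor reduced protein, were the controls. The low protein (LP) diet held less casein, the high-fat (HF) diet held more fat with the casein of the NP diet, and the HF + LP diet joined the high fat with the low casein. No transgene, deletion or drug is named for any group. The sources used here do not name the strain. The sources differ on age. The labels give 18 months for every mouse, while the methods of the study describe feeding from 12 months of age for 4 months and collection at 16 months, in both cases without a difference between diets. NP mice weighed 33.3 to 52.3 g, LP mice 29.9 to 36.9 g, HF mice 56.1 to 60.9 g and HF + LP mice 41.2 to 56.1 g.

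In muscle that wastes, proteins are tagged with ubiquitin and broken down by the proteasome, and the enzymes that choose the proteins to be tagged are E3 ubiquitin ligases. FOXO transcription factors are known to switch on several of these ligases and genes of autophagy when insulin and AKT signaling is low, since AKT keeps FOXO proteins out of the nucleus. In the heart the same ligases act on sarcomere proteins and on signaling proteins of cardiomyocyte growth, and myostatin is a secreted brake on muscle growth that signals through activin receptors and SMAD proteins.

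RNA was counted by QuantSeq, which reads the 3′ end of each polyadenylated transcript. A transcript gives about 1 tag whatever its length, so CPM (counts scaled to a common library size, here by TMM factors) can be set side by side between genes without a length correction, although priming may differ between transcripts. Total counts per mouse ranged from 12559607 to 23331907, and mitochondrially encoded genes took 35.4% to 47.2% of them. The library of LP mouse 13 stood apart from its group, with a median correlation of 0.908 to the other LP mice against 0.944 or more for every other library. The 6 cardiomyocyte markers (Myh6, Tnnt2, Tnni3, Actc1, Myl2 and Ryr2) summed to between 26179 and 41679 CPM in each mouse. This sum marks heart muscle and does not tell ventricle from atrium, and Myl2 alone ranged from 1797 to 8466 CPM. Of 8 skeletal muscle markers, 5 were in the table, with sums of 1.63 to 5.87 CPM, and the fast myosins Myh1, Myh2 and Myh4 were not listed. Atrial markers (Myl7, Sln, Nppa and Myl4) varied from 57.2 to 14483 CPM between mice, and adipocyte markers from 0.415 to 272 CPM, with the highest value of both in the LP group. Whether some samples held atrial tissue was not tested. Nothing in the labels or methods says that mice were pooled.

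The promoter of Trim63 held the letters that FOXO proteins are known to bind. The windows compared were the 250 bases before each gene's start in RefSeq, on GRCm38.p6. A window was found for 6 of the 7 genes, Fbxo32 being the gene without one in the table used. The motif searched was TGTTTAC on either strand (GTAAACA), and the window of Trim63 was the 1 of the 6 with a match, while 1040 of 32851 windows of the same length (3.17%) had one. The match lay 194 to 188 bases before the start and is a description of the letters only. The window of Trim63 is shown because it carries the motif, in capitals, and that of Foxo1 because it is the gene with the smallest p below; both read 5′ to 3′ along the coding strand, at chr4:134314870-134315119 (+) and chr3:52268087-52268336 (+).
Trim63: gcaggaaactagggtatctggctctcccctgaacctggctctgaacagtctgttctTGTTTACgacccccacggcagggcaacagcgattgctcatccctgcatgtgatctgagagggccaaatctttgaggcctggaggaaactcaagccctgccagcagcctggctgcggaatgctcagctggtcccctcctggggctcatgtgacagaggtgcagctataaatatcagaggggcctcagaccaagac
Foxo1: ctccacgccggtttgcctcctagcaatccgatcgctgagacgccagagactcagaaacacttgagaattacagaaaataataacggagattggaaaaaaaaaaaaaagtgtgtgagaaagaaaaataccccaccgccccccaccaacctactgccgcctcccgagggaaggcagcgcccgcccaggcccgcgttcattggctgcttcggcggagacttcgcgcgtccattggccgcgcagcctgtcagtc
The base composition of the windows also differed, with 56.8% G and C for Trim63, 56% for Foxo1, 38.4% for Mstn and 80.4% for Fbxo30.

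The 7 genes covered a wide range of levels, with Trim63 and Fbxo32 at the top, Fbxo30 the lowest of the 6 that could be tested and myostatin near the limit of counting. Trim63 (MuRF1), a sarcomere-bound ligase, had the highest level, with a mean of 216 CPM over the 20 mice, above 97.1% of the genes tested. Fbxo32 (atrogin-1), the F-box protein that brings substrates to an SCF ligase, followed with 124 CPM, above 94.8% of them. Foxo3 averaged 51.4 CPM, Fbxo31 42 CPM, Foxo1 33.9 CPM and Fbxo30 12.4 CPM. Every mouse had more Trim63 than any mouse had Foxo3, while Foxo3, Fbxo31 and Foxo1 overlapped in their ranges, which were 33.6 to 75.1, 27.1 to 56.1 and 29 to 39.2 CPM. Mstn, the gene of myostatin, had 84 counts in all 20 libraries together and a mean of 0.251 CPM. The low-count filter kept 13991 genes, among them all of the 7 except Mstn.

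**Figure D1:**
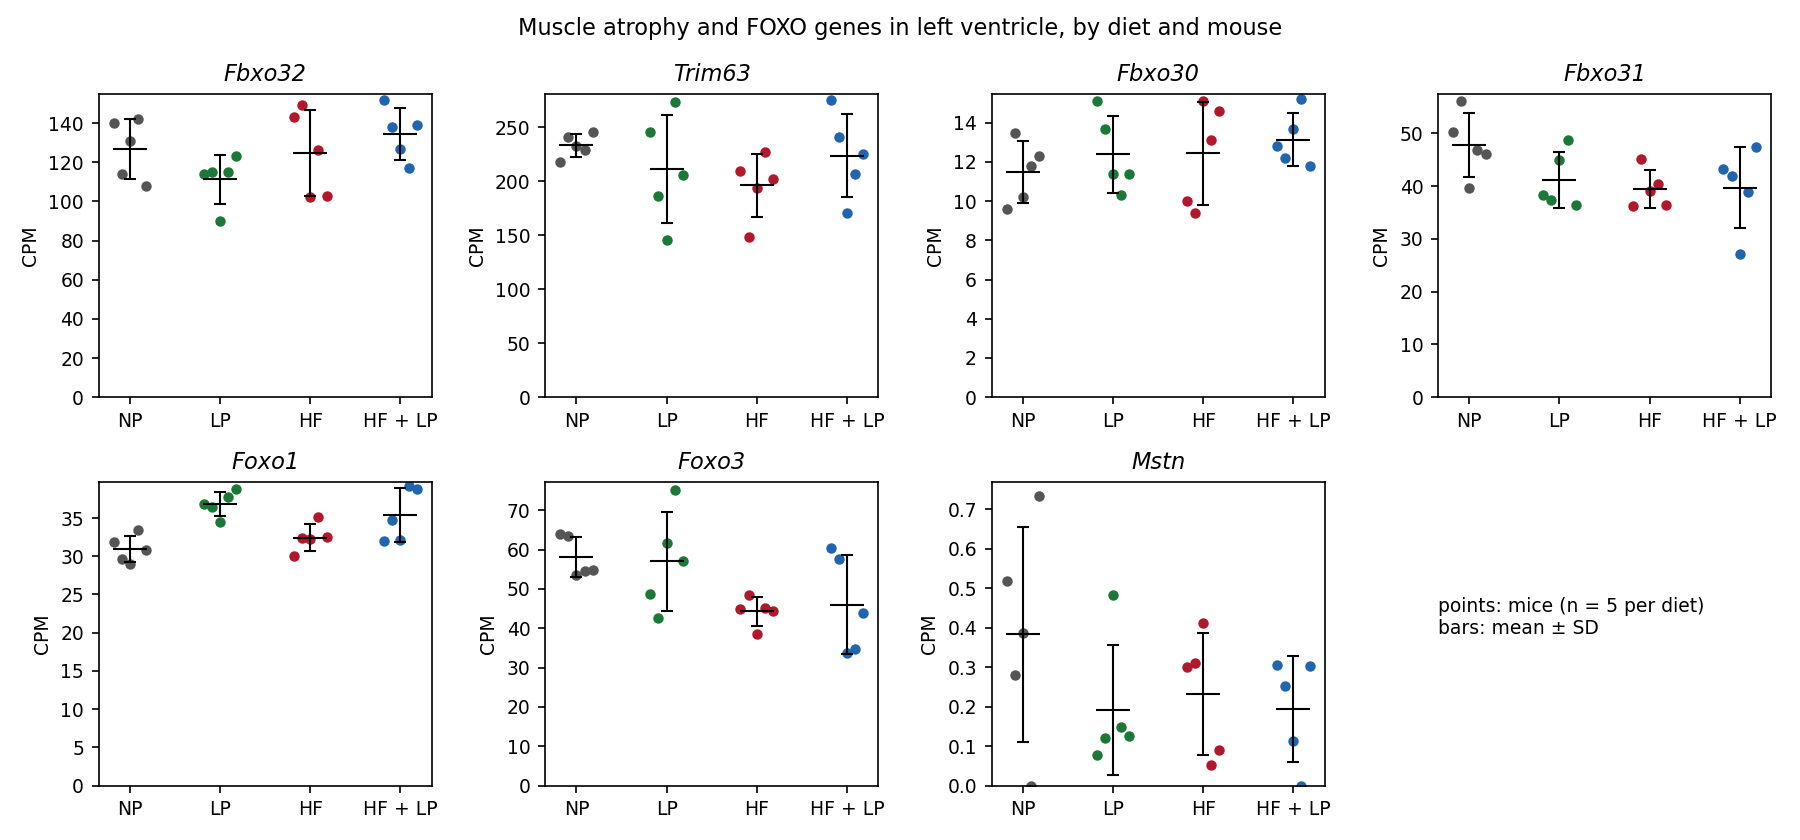
Level of each of the 7 genes in CPM (scaled counts, linear axes from 0) in the left ventricle of every mouse, by diet. Points are mice (n = 5 per diet) and bars are mean ± SD. The 5 HF mice lie below the 5 NP mice for Foxo3 (38.5 to 48.5 against 53.6 to 63.9 CPM), and the 5 LP mice lie above the 5 NP mice for Foxo1 (34.5 to 38.8 against 29 to 33.4 CPM).

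None of the 6 genes tested met the threshold in any of the comparisons between diets. A call needed an adjusted p under 0.01 in edgeR and a base mean (the size-factor scaled count averaged over mice) of more than 50. Between HF and NP, 0 of 6 were called against 0.264% of all genes tested. At an unadjusted p under 0.05, 0 of 6 were higher in HF and 2 of 6 lower, against 5.17% and 7.91% of all genes (13.1% together). Between HF + LP and HF, 0 were called against 0% of all genes, and 0 of 6 were higher or lower at an unadjusted p under 0.05, against 2.41% and 2.43% (4.84% together). Between LP and NP, 0 were called against 0%, and 1 of 6 was higher and 0 lower at an unadjusted p under 0.05, against 5.02% and 2.21% (7.23% together). Between HF + LP and LP, 0 were called against 0.100%, and 1 of 6 was higher and 0 lower at an unadjusted p under 0.05, against 6.26% and 9.66% (15.9% together). The interaction of fat and protein, which asks whether the difference made by protein depends on fat, had 0 called against 0% and 0 at an unadjusted p under 0.05, against 2.86% higher and 4.31% lower (7.17% together).

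DESeq2 also called 0 of the 6 genes in each comparison. It called 1.17% of all genes between HF and NP, 0.114% between HF + LP and HF, 0.0286% between LP and NP, 0.600% between HF + LP and LP and 0.00715% for the interaction. Its counts at an unadjusted p under 0.05 were 1 of 6 between HF and NP (13.1% of all genes), 0 between HF + LP and HF (4.76%), 1 between LP and NP (7%), 1 between HF + LP and LP (16.1%) and 0 for the interaction (7.14%). With 6 genes, 1 gene is already a share above each of these backgrounds, so nothing about the genes is read from the counts, and the values that follow are descriptions with their errors. The genes below an unadjusted p of 0.05 in edgeR were Foxo3 and Fbxo31 between HF and NP, Foxo1 between LP and NP, and Fbxo32 between HF + LP and LP.

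Foxo3, a FOXO factor known to drive Fbxo32 and autophagy genes, had its lowest mean in the HF group. Its gene lies at chr10:42181841-42276755 (GRCm38, GENCODE M21, minus strand). The NP mice had 63.9, 63.5, 53.6, 54.6 and 54.8 CPM, and the HF mice had 45, 48.5, 38.5, 45.2 and 44.4 CPM. Every HF mouse thus lay below every NP mouse, as happened for 5.67% of all genes tested in this comparison. The LP mice had 48.8, 42.5, 61.6, 75.1 and 57 CPM and the HF + LP mice 60.4, 57.5, 33.6, 34.8 and 43.9 CPM, so both low-protein groups spread across the range of the other two. Means ± SD (n = 5 each) were 58.1 ± 5.15 CPM in NP and 44.3 ± 3.62 in HF, beside 57 ± 12.5 in LP and 46 ± 12.5 in HF + LP. The log2 fold change from NP to HF was −0.39 (SE 0.16, 95% interval −0.73 to −0.05) (adjusted p = 0.289 in edgeR). In the fits without HF mouse 3, NP mouse 3 or NP mouse 4 its unadjusted p no longer lay under 0.05. With both low-protein groups the corresponding value, from LP to HF + LP, was −0.31 (SE 0.16, interval −0.65 to 0.03, edgeR adjusted p = 0.358), and it moved between −0.19 without LP mouse 15 and −0.42 without HF + LP mouse 1. Its value was −0.27 without LP mouse 13, and the interaction was 0.08 (SE 0.23, interval −0.4 to 0.56). From HF to HF + LP the difference was 0.05, with an interval of −0.28 to 0.39.

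The HF hearts also had less signal from cardiomyocyte markers, whose sum was 27539 to 34488 CPM against 35174 to 41679 CPM in NP, without overlap. Of single genes tested, 5.67% had such a separation between HF and NP, and the share for sums of this kind was not computed. Per 1000 counts of those markers, a ratio computed after the values had been seen, Foxo3 was 1.36 to 1.54 in HF and 1.45 to 1.76 in NP, so the groups overlapped on that scale. Macrophage markers (Adgre1, Cd68, Csf1r and Mrc1) summed to 97.9 to 128 CPM in HF and 80 to 106 CPM in NP. Endothelial markers (Pecam1, Cdh5, Kdr and Tie1) summed to 441 to 539 CPM in HF and 399 to 465 CPM in NP. Fibroblast markers (Pdgfra, Col1a1, Dcn and Tcf21) summed to 864 to 1106 CPM in HF and 796 to 990 CPM in NP. For each of these types the groups overlapped. In tissue RNA, fewer cells of a type and less RNA per cell cannot be told apart, and the part of either in the value of Foxo3 was not tested.

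Foxo1, a FOXO factor also known for metabolic genes such as those of fuel selection, had its highest mean in the LP group. It lies at chr3:52268336-52353221 (plus strand), where the annotation also places the antisense gene Gm20402 and the gene Gm38034, neither of which is in the table. In NP it was at 31.9, 29.7, 29, 33.4 and 30.8 CPM and in LP at 36.8, 36.5, 34.5, 37.7 and 38.8 CPM. Every LP mouse lay above every NP mouse, as happened for 0.786% of all genes tested when both directions are counted. The HF mice had 30, 32.4, 32.2, 35.1 and 32.5 CPM and the HF + LP mice 32, 34.8, 32.1, 39.2 and 38.8 CPM, and these groups overlapped with each other. NP averaged 31 ± 1.76 CPM and LP 36.8 ± 1.59, beside 32.4 ± 1.82 for HF and 35.4 ± 3.5 for HF + LP (SD, n = 5 each). The log2 fold change from NP to LP was 0.25 (SE 0.08, interval 0.08 to 0.42) (adjusted p = 0.508 in edgeR and 0.220 in DESeq2). Without LP mouse 13 it was 0.27 (SE 0.08, edgeR adjusted p = 0.433). On the high-fat background the protein contrast was 0.13 (SE 0.08, interval −0.05 to 0.3), and the interaction of −0.12 had an interval of −0.37 to 0.12. Fat alone gave 0.07 (interval −0.1 to 0.24) without protein restriction and −0.06 (interval −0.23 to 0.11) with it. Per 1000 cardiomyocyte marker counts, Foxo1 was 0.766 to 0.889 in NP, and each of the other diets lay above that range, with 0.956 to 1.48 in LP, 0.939 to 1.17 in HF and 0.905 to 1.18 in HF + LP. The marker sum, the divisor, already lay lower in every HF mouse than in every NP mouse, while Foxo1 in CPM overlapped between them. The share of all genes with such a separation on this scale was not computed.

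The balance of the FOXO factors was followed as the counts of Foxo1 divided by those of Foxo3 within each library, which needs no scaling and was chosen after the levels had been seen. Its median was lowest in NP, at 0.54, followed by LP at 0.681, HF at 0.731 and HF + LP at 0.885. The NP mice had ratios of 0.468 to 0.612 and the HF mice of 0.667 to 0.836, so these groups did not overlap. Foxo3, the divisor, already lay lower in every HF mouse than in every NP mouse, and the share of all gene pairs with such a separation was not computed. The ratios of LP (0.501 to 0.858) and HF + LP (0.529 to 1.13) overlapped with those of NP.

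In CPM, Fbxo32 differed most between the low-protein diets. It lies at chr15:58175879-58214932 (minus strand), with the antisense gene Gm15943, not in the table, on the other strand. The LP mice had 114, 115, 89.9, 115 and 123 CPM and the HF + LP mice 152, 138, 127, 117 and 139 CPM, so 4 of 5 HF + LP mice lay above every LP mouse. The NP mice had 140, 114, 131, 142 and 108 CPM and the HF mice 143, 149, 102, 126 and 103 CPM, and both groups covered most of the whole range. LP averaged 112 ± 12.7 CPM and HF + LP 135 ± 13.1, beside 127 ± 15.5 for NP and 125 ± 21.6 for HF (SD, n = 5 each). From LP to HF + LP the log2 fold change was 0.27 (SE 0.12, interval 0.01 to 0.53, adjusted p = 0.292 in edgeR). Without LP mouse 13, the lowest of the LP mice, it was 0.2 (SE 0.13, edgeR adjusted p = 0.564) and the unadjusted p was not under 0.05. The unadjusted p was also not under 0.05 without LP mouse 2 or HF + LP mouse 5, and stayed under it in 21 of 28 alternatives. The same contrast of fat without protein restriction was −0.03 (interval −0.28 to 0.23), and the interaction was 0.3 (SE 0.17, interval −0.06 to 0.66, edgeR adjusted p = 0.752). LP relative to NP gave −0.19, with an interval of −0.44 to 0.07, and −0.12 without LP mouse 13. Per 1000 cardiomyocyte marker counts the larger gap was that between HF (4.01 ± 0.453) and NP (3.39 ± 0.365), with ranges of 3.58 to 4.66 and 2.93 to 3.77 that overlapped, while HF + LP had 3.91 ± 0.553 and LP 3.48 ± 0.703 (SD, n = 5 each).

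Trim63, at chr4:134315120-134329629 (plus strand), had the narrowest spread in NP and the widest in LP. Its level was 218, 241, 233, 229 and 246 CPM in the NP mice and 246, 186, 146, 274 and 206 CPM in the LP mice. The HF mice had 210, 148, 194, 227 and 202 CPM and the HF + LP mice 275, 241, 171, 207 and 225 CPM. NP averaged 233 ± 10.8 CPM and HF 196 ± 29.5, beside 212 ± 50.3 for LP and 224 ± 38.5 for HF + LP (SD, n = 5 each). Of the HF mice, 4 of 5 lay below every NP mouse, and the log2 fold change was −0.25 (SE 0.15, interval −0.57 to 0.07, edgeR adjusted p = 0.532). Per 1000 cardiomyocyte marker counts the direction between these groups turned, with 6.41 ± 1.18 in HF (4.29 to 7.03) and 6.26 ± 0.627 in NP (5.22 to 6.67; SD, n = 5 each). HF + LP was above HF by 0.19 (interval −0.13 to 0.51), or by 0.1 without HF mouse 2 or without HF + LP mouse 1, LP against NP gave −0.14 (interval −0.46 to 0.18), and HF + LP against LP gave 0.08 (interval −0.24 to 0.4). The lowest value came from LP mouse 13, whose library stood apart, and without it LP against NP was −0.04 and HF + LP against LP was −0.03 (SE 0.14 for both). Without LP mouse 15, the highest of the LP mice, the same values were −0.25 and 0.19. The Fbxo32 to Trim63 ratio, also chosen after values had been seen, had medians between 0.555 (HF) and 0.598 (LP), with overlapping ranges.

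Fbxo31, an F-box protein known from control of the cell cycle, had its highest mean in the NP group. It lies at chr8:121549440-121578806 (minus strand) and overlaps Gm20388, which is annotated on the other strand and is not in the table. Single NP mice had 50.2, 56.1, 39.6, 46.9 and 46.1 CPM and single HF mice 36.2, 45.1, 39, 40.4 and 36.4 CPM, with 3 of 5 HF mice below every NP mouse. The log2 fold change was −0.28 (SE 0.13, adjusted p = 0.376 in edgeR and 0.405 in DESeq2), and in DESeq2 its unadjusted p was not under 0.05. LP averaged 41.2 ± 5.38 CPM and HF + LP 39.7 ± 7.68 CPM (SD, n = 5), against 47.8 ± 6 in NP and 39.4 ± 3.65 in HF. Its fold change was −0.22 from NP to LP (interval −0.49 to 0.06), 0.01 from HF to HF + LP (interval −0.26 to 0.29) and −0.05 from LP to HF + LP (interval −0.33 to 0.22). Per 1000 cardiomyocyte marker counts it was 1.18 to 1.42 in HF and 1.13 to 1.55 in NP, so the HF range lay within the NP range.

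Fbxo30 (MUSA1), an F-box protein induced in denervated muscle, was the lowest of the ligases. It lies at chr10:11281330-11298052 (plus strand). NP averaged 11.5 ± 1.59 CPM, LP 12.4 ± 1.99, HF 12.4 ± 2.6 and HF + LP 13.1 ± 1.38 (SD, n = 5 each), and the groups overlapped in every comparison. The log2 fold changes were 0.12 from NP to HF (interval −0.18 to 0.42), 0.11 from NP to LP (interval −0.2 to 0.41), 0.07 from HF to HF + LP (interval −0.23 to 0.38) and 0.09 from LP to HF + LP (interval −0.21 to 0.39). Leaving out single mice moved these estimates to 0.04 to 0.21, 0.03 to 0.17, −0.01 to 0.15 and 0.03 to 0.17 in the same order. Per 1000 cardiomyocyte marker counts it was 0.272 to 0.547 in HF and 0.23 to 0.373 in NP, again with overlap.

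Mstn, at chr1:53061640-53068079 (plus strand), was detected at 0 to 13 counts per mouse. The NP mice had 8, 4, 5, 0 and 11 counts, the LP mice 1, 2, 13, 2 and 3, the HF mice 4, 4, 8, 1 and 2, and the HF + LP mice 5, 4, 2, 0 and 5. A count of 0 allows up to 3 counts, which corresponds to 0.152 CPM in NP mouse 6 and 0.198 CPM in HF + LP mouse 4. The 5 NP mice together gave 28 counts, the LP mice 21, the HF mice 19 and the HF + LP mice 16, and 13 of the 21 LP counts came from LP mouse 13. In an edgeR fit without the low-count filter no comparison had an unadjusted p under 0.05. The intervals were wide, such as −2.24 to 0.8 around a log2 fold change of −0.72 from NP to HF.

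**Figure D2:**
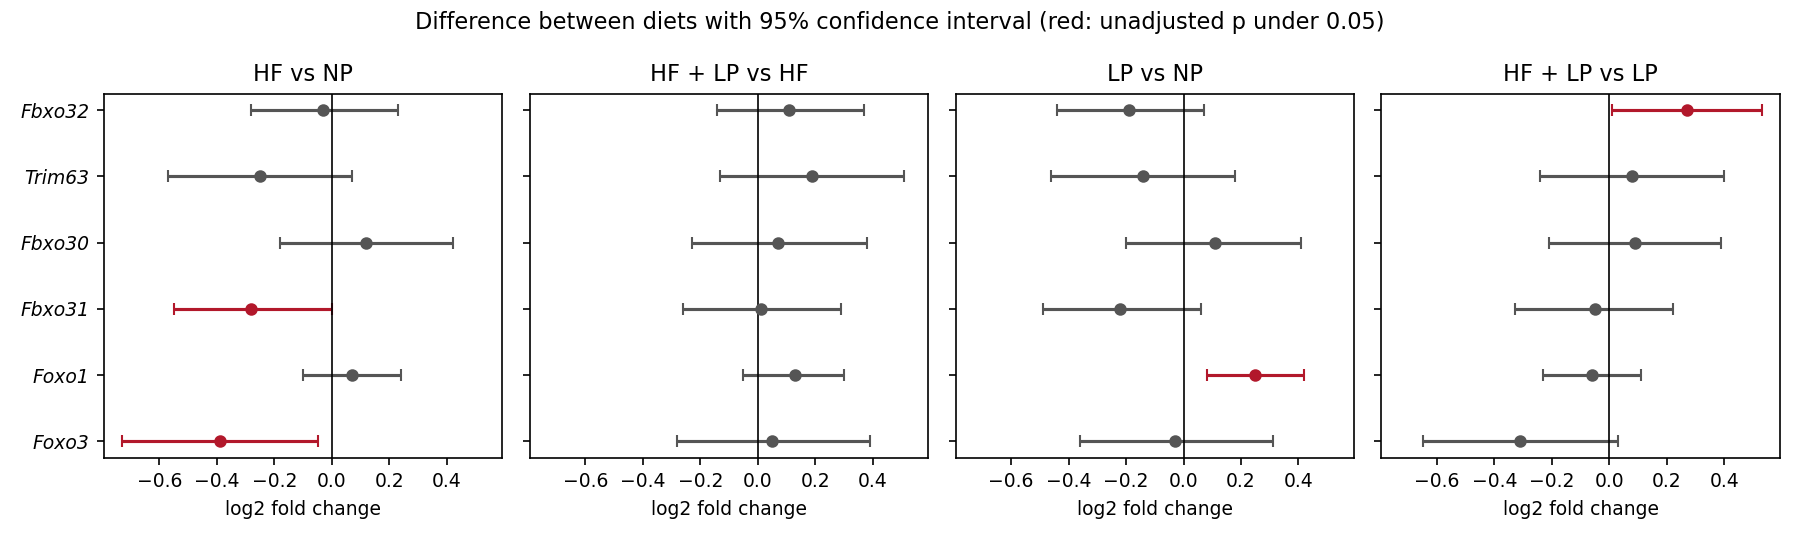
Log2 fold change of the 6 tested genes in the comparisons of diets (x axis, edgeR), with 95% confidence intervals. Red marks an unadjusted p under 0.05, and no value met the adjusted threshold. The intervals of Foxo3 and Fbxo31 between HF and NP, of Foxo1 between LP and NP, and of Fbxo32 between HF + LP and LP reach to 0 or lie to one side of it, while all of the values between HF + LP and HF have intervals that span 0.

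The median log2 fold change of the 6 genes was −0.14 from NP to HF, against 0 over all genes tested. It was 0.09 from HF to HF + LP against 0.02, −0.08 from NP to LP against 0.02, and 0.01 from LP to HF + LP against −0.03. The directions were mixed in most comparisons, with 2 of 6 estimates above 0 in HF against NP, 2 of 6 in LP against NP and 3 of 6 in HF + LP against LP. All 6 estimates were above 0 in HF + LP against HF, where the smallest adjusted p was 0.999. That of Fbxo31, at 0.01, became −0.01 with RLE size factors, DESeq2, or mitochondrial genes left out. HF against NP and HF + LP against HF share the HF mice, and HF against NP and LP against NP share the NP mice, so these values are not independent of each other.

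Mice on the same diet were then compared to see which of the 7 genes varied together. Pearson's r was computed on log2 CPM centred on the diet means over 20 mice, with 100000 permutations within diets. Of 21 pairs, 0 had an adjusted p under 0.05 and 4 had an unadjusted p under 0.05. Fbxo31 and Foxo3 had the highest r, 0.67 (permutation p = 0.0046, adjusted p = 0.0663), with Spearman's rho 0.66 (permutation p = 0.00548, adjusted p = 0.101) and r = 0.66 without the 2 mice farthest from the median of Fbxo31. Fbxo30 and Foxo3 had r = −0.53 (permutation p = 0.00631, adjusted p = 0.0663) and rho −0.52 (permutation p = 0.0145, adjusted p = 0.101), with r = −0.50 without the 2 farthest mice. Fbxo32 and Fbxo30, both F-box ligases, had r = −0.64 (permutation p = 0.0177, adjusted p = 0.124) and rho −0.65 (permutation p = 0.0137, adjusted p = 0.101), with r = −0.72 without the 2 farthest mice. Without LP mouse 13, and with the diet means recomputed, this pair had r = −0.78 and an adjusted p of 0.0227 over the 21 pairs (permutation test), and with the diet means kept r was −0.76. The remaining pair, Foxo1 and Mstn, had r = −0.50 (permutation p = 0.037, adjusted p = 0.194) and rho −0.42 (permutation p = 0.0893, adjusted p = 0.401), with r = −0.54 without the 2 farthest mice, and rests on the 0 to 13 counts of Mstn per mouse. Fbxo32 and Trim63, the pair most often measured together as markers of atrophy, had r = 0.20 (permutation p = 0.432, adjusted p = 0.698) and rho 0.03 (permutation p = 0.907), and r = −0.01 without LP mouse 13 with the diet means kept.

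**Figure D3:**
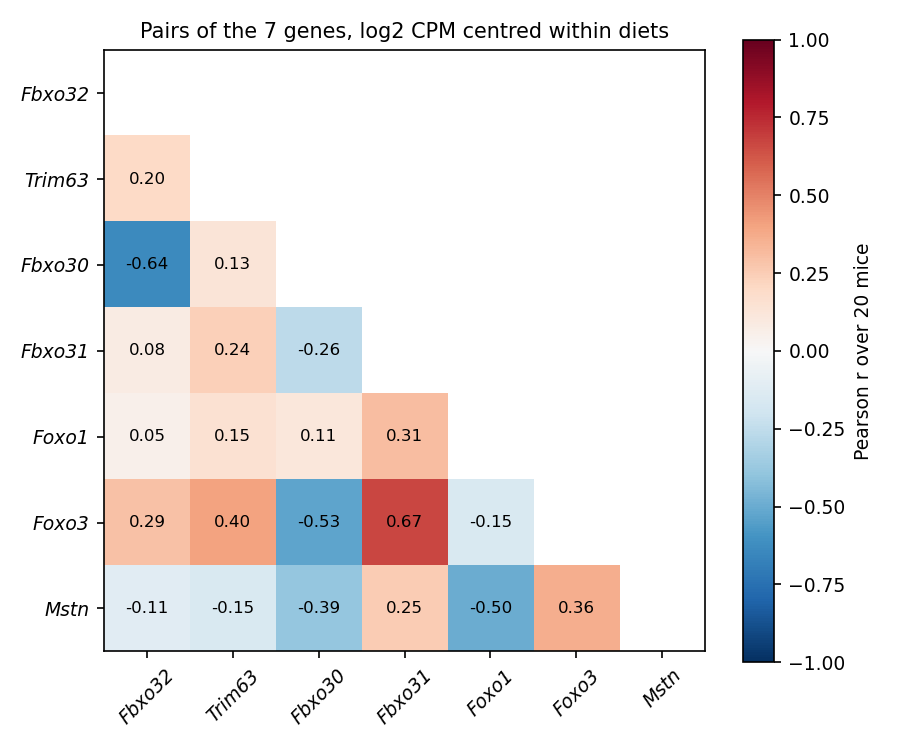
Pearson's r between the 7 genes over 20 mice, on log2 CPM centred on the diet means, with the value printed in each square and the color scale from −1 to 1. Fbxo31 with Foxo3 (0.67) is the highest square and Fbxo32 with Fbxo30 (−0.64) the lowest.

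As a description, the genes most like each of the 7 were listed by the same centred correlation, among 10077 genes whose base mean was above 50. The closest to Foxo3 were Rhobtb1 (r = 0.89), Herpud1 (0.88) and Nr1d2 (0.88), and those closest to Fbxo31 were Got2 (0.89), Trpm4 (0.86) and Itga7 (0.85). Fbxo32 was closest to Dync1i2 (0.9), Lmod2 (0.89) and Snw1 (0.88), and Trim63 to mt-Nd1 (0.8), Arfgap2 (0.8) and Eef1a2 (0.79). Fbxo30 was closest to Irs1 (0.89), Foxj2 (0.87) and Tmem33 (0.87), Foxo1 to Ech1 (0.81), Puf60 (0.81) and Zdhhc14 (0.8), and Mstn to Pkd2 (0.75), Fry (0.71) and Fam122b (0.7). Irs1, the insulin receptor substrate, is the 1 gene named here that is also in the pathway lists. These are the highest of many values over the same 20 libraries, and depth and tissue make-up are shared by all of them. The r of Trim63 with the share of mitochondrially encoded counts was 0.63 over 20 mice (permutation p = 0.0156, adjusted p = 0.458 over 35 relations with measures of the libraries, chosen after values had been seen), with Spearman's rho 0.68 (permutation p = 0.00679, adjusted p = 0.238) and r = 0.67 without the 2 farthest mice. Fbxo31 with the log2 sum of the cardiomyocyte markers was the other relation with an unadjusted p under 0.05. Its r was 0.60 (permutation p = 0.0261, adjusted p = 0.458) and its rho 0.51 (permutation p = 0.0396, adjusted p = 0.693), with r = 0.32 without the 2 farthest mice.

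The other genes of the pathway were read from the same edgeR fit. Of 71 listed, 70 were in the table and tested, Wfikkn1 being the one not listed in it. The count of called genes was 0 in every comparison. At an unadjusted p under 0.05, HF against NP had 5 of 70 higher and 3 lower, beside 5.17% and 7.91% of all genes. HF + LP against HF had 0 higher and 1 lower, beside 2.41% and 2.43%. LP against NP had 4 higher and 1 lower, beside 5.02% and 2.21%, and HF + LP against LP had 6 higher and 5 lower, beside 6.26% and 9.66%. The interaction had 0 higher and 1 lower, beside 2.86% and 4.31%. DESeq2 called 2 of the 70 in HF against NP, against 1.17% of all genes, and 2 in HF + LP against LP, against 0.600%. The median log2 fold change of the 70 genes was 0.01 from NP to HF and 0 from LP to HF + LP.

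Of the 19 FOXO target genes, 5 had an unadjusted p under 0.05 in HF against NP, 4 higher and 1 lower, beside 5.17% and 7.91% of all genes. The numbers were the same in HF + LP against LP, 4 higher and 1 lower, beside 6.26% and 9.66%. Cdkn1a, the cell-cycle inhibitor p21, had 15.6, 11.3, 20.9, 18.8 and 13.3 CPM in the NP mice and 31.3, 54, 48.4, 39.5 and 31 CPM in the HF mice, without overlap, as for 5.67% of all genes tested. Its log2 fold change was 1.35 (SE 0.29, adjusted p = 0.0222 in edgeR), which missed the threshold, while DESeq2 gave an adjusted p of 0.000520. From LP to HF + LP it was 0.68 (SE 0.29, edgeR adjusted p = 0.249), or 0.53 without LP mouse 13, and the interaction of −0.67 (SE 0.4) had an adjusted p of 0.766 in edgeR. Bnip3, a mitophagy receptor, had 106, 111, 113, 131 and 107 CPM in the NP mice and 134, 166, 147, 155 and 149 CPM in the HF mice, one of the same 5.67% without overlap. Its fold change was 0.41 (SE 0.1, adjusted p = 0.0539 in edgeR and 0.00351 in DESeq2) from NP to HF and 0.42 (SE 0.1, adjusted p = 0.0818 in edgeR and 0.00753 in DESeq2) from LP to HF + LP. Map1lc3b, whose protein coats autophagosomes, averaged 180 ± 27.1 CPM in LP and 246 ± 48.2 in HF + LP (SD, n = 5), a log2 fold change of 0.45 (SE 0.13, edgeR adjusted p = 0.117), or 0.37 without LP mouse 13. These genes have other regulators besides FOXO factors, and FOXO activity was not measured.

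Of the 12 genes of insulin and AKT signaling, Insr had the smallest p in HF against NP. The insulin receptor gene had 35.2, 35.8, 43.4, 40.8 and 40.8 CPM in the NP mice and 29.2, 27.8, 29.4, 29.1 and 29.6 CPM in the HF mice, so the HF group was narrow and lay below NP without overlap (5.67% of all genes). Its log2 fold change was −0.43 (SE 0.12, edgeR adjusted p = 0.0805) from NP to HF and −0.33 (SE 0.12, edgeR adjusted p = 0.184) from LP to HF + LP. The insulin receptor substrate Irs2 averaged 8.05 ± 1.94 CPM in NP and 12.7 ± 3.09 in LP (SD, n = 5), a log2 fold change of 0.65 (SE 0.22, edgeR adjusted p = 0.531). Irs1 averaged 17.3 ± 4.15 CPM in NP, 24.2 ± 7.43 in LP and 17.1 ± 2.16 in HF + LP (SD, n = 5), with fold changes of 0.48 from NP to LP and −0.5 from LP to HF + LP (edgeR adjusted p = 0.654 and 0.255). Without LP mouse 2 these were 0.31 and −0.33, and neither then had an unadjusted p under 0.05.

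Fbxo32, Fbxo30 and Fbxo31 belong to the F-box proteins, which bind Skp1, and of the 3 SCF partners measured the Skp1 gene (listed as Skp1a) had the smallest p. It had 117, 113, 95, 113 and 104 CPM in the LP mice and 127, 136, 130, 126 and 140 CPM in the HF + LP mice, without overlap, as for 1.87% of all genes. The log2 fold change was 0.28 (SE 0.08, adjusted p = 0.112 in edgeR and 0.00536 in DESeq2), and 0.24 without LP mouse 13, the lowest of the LP mice. Cul1 and Rbx1, the scaffold and the RING subunit, had differences between −0.08 and 0.13 in the comparisons of diets. Among the 13 other ubiquitin ligases, 1 had an unadjusted p under 0.05 in any comparison, in HF + LP against LP, where 15.9% of all genes had one. This was Traf6, with −0.34 (SE 0.16, edgeR adjusted p = 0.312), which kept an unadjusted p under 0.05 in 6 of 28 alternatives and was −0.29 without LP mouse 13, whereas Asb2 (209 to 250 CPM in the group means) and Mul1 (20.4 to 25.8 CPM) had none. Foxo4 averaged 34.3 to 39.9 CPM by diet and Foxo6 2.47 to 4.78 CPM, and neither had an unadjusted p under 0.05.

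In myostatin and activin signaling, the activin subunit gene Inhbb and the activin antagonist Fst were expressed at low levels. For Inhbb, NP averaged 1.02 ± 0.195 CPM, LP 1.88 ± 0.712, HF 2.2 ± 0.505 and HF + LP 2.25 ± 1.26 (SD, n = 5 each), and all LP and all HF mice lay above all NP mice, a separation seen for 0.786% of all genes between LP and NP and for 5.67% between HF and NP. Its log2 fold change was 1.1 from NP to HF (SE 0.36, edgeR adjusted p = 0.138) and 0.86 from NP to LP (SE 0.36, edgeR adjusted p = 0.635), and its base mean of 30.2 was below the minimum for a call. Fst, at 0.356 ± 0.352 CPM in NP and 0.963 ± 0.607 in LP (SD, n = 5), had an interaction of −2.11 (SE 0.95, edgeR adjusted p = 0.689). The activin receptor gene Acvr1b averaged 8.72 ± 3.07 CPM in LP and 5.74 ± 1.83 in HF + LP (SD, n = 5), a difference of −0.61 (SE 0.28, edgeR adjusted p = 0.285) that was −0.39 without LP mouse 13. Of the 5 glucocorticoid-responsive genes, the clock gene Per1 averaged 33.7 ± 7.31 CPM in NP and 16 ± 4.27 in HF (SD, n = 5), without overlap, as for 5.67% of all genes, and with a difference of −1.08 (SE 0.47, edgeR adjusted p = 0.317). Fkbp5 and Nr3c1, a cochaperone gene and the glucocorticoid receptor gene, had no unadjusted p under 0.05. The methods of the study place collection in the middle of the light phase for fed mice, and the labels give no hour for a single mouse.

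**Figure D4:**
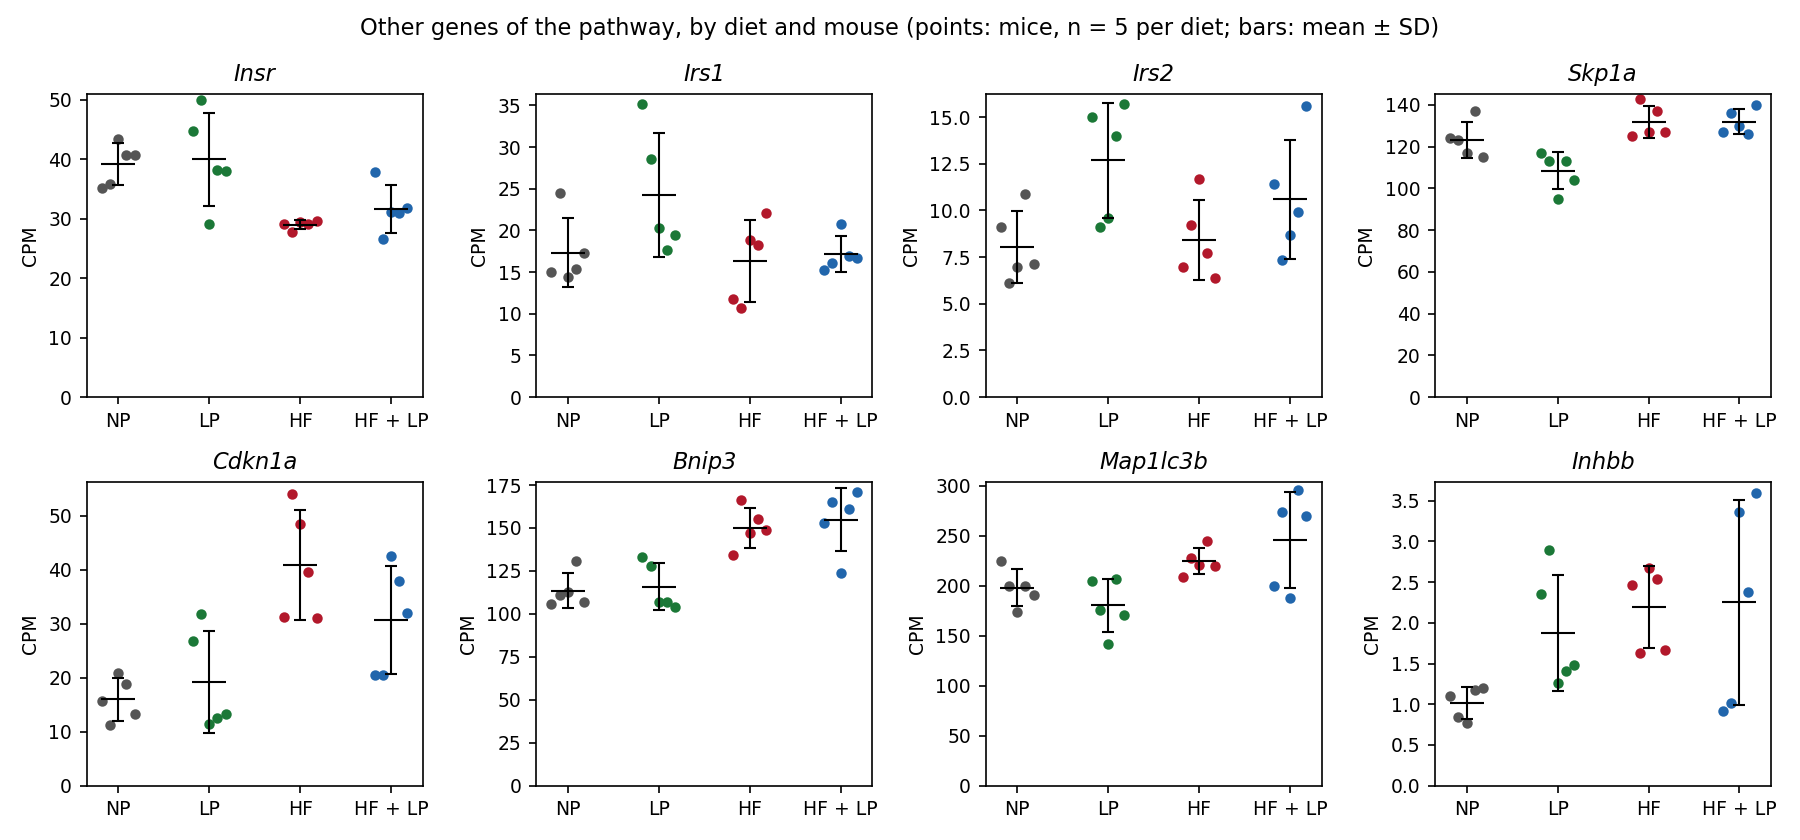
Level in CPM (scaled counts, linear axes from 0) of 8 other genes of the pathway in every mouse, by diet, chosen after their values had been seen. Points are mice (n = 5 per diet) and bars are mean ± SD. HF mice lie above NP mice for Cdkn1a (31 to 54 against 11.3 to 20.9 CPM) and Bnip3 (134 to 166 against 106 to 131 CPM) and below them for Insr (27.8 to 29.6 against 35.2 to 43.4 CPM).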

How the data were processed

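Left ventricular RNA of 20 mice was sequenced from QuantSeq 3′ libraries. The authors aligned 75 bp reads with BlueBee software and deposited raw counts per Ensembl gene and mouse, without normalization. The submitters' notes name GRCm38 and DESeq2 1.22.2; the counting program and its strand setting are not given in the sources used here. Each listed gene had at least 60 counts in all.

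Mice were grouped by labelled diet. Counts were filtered with filterByExpr by diet, scaled by TMM and fitted for all 20 libraries together with the quasi-likelihood test of edgeR 4.0.16 in R 4.3.3, with Benjamini-Hochberg adjustment over 13991 genes. Calls were made at an adjusted p under 0.01 with a base mean of more than 50, the thresholds of the study. CPM are counts divided by the TMM-scaled library size, and log2 CPM used a prior count of 2. DESeq2 1.42.0 was an alternative. Standard errors were derived from the F statistic. The edgeR and DESeq2 fits were tested on simulated counts, for HF against NP only. The correlations were not tested in this way. P-values measure the spread between single mice.

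The genes and lists were chosen with earlier results of these data known. Named were all 7 genes, in each pathway list the 3 genes with the smallest unadjusted p in any comparison, and the 3 genes most correlated with each of the 7. Alternatives were RLE size factors, DESeq2, other filters and thresholds, the library-name number as covariate, the animal number as block, mitochondrial genes left out, only the groups compared, and each mouse left out. Intervals of fold changes come from the fit and reflect the spread between mice, while the floors for counts of 0 cover counting error only.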

Additional observations from a re-analysis of the deposited data

Results flagged for a closer look

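The 7 genes were examined for a mouse far from the others of its diet in 28 groups of 5, by the gap to the nearest mouse relative to the whole range (critical value 0.71, which chance passes in about 1 group in 20). There were 2 such values, both in LP mouse 13, whose library stood apart from its group. Fbxo32 was lowest in that mouse, at 89.9 CPM with the next LP mouse at 114 CPM (gap 0.728 of the range). Mstn was highest in it, at 0.482 CPM with the next at 0.149 CPM (gap 0.825 of the range).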

How the results depend on the processing

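Over 834 alternative values of the 30 fold changes of the 6 tested genes, 0 were called and 38 had the opposite sign, spread over 11 fold changes. The largest move among these was that of Foxo3 from LP to HF + LP, −0.31 in the main analysis and 0.04 with the animal number as block. The opposite value farthest from 0 was that of Fbxo30 from LP to HF + LP, −0.23 with the same block against 0.09 in the main analysis. Fbxo32 from NP to HF became 0.02 with the library-name number as covariate and 0.01 with only the groups compared, and ranged from −0.1 to 0.03 when single mice were left out. Fbxo31 from HF to HF + LP became −0.01 with RLE size factors, DESeq2, or mitochondrial genes left out, and Fbxo30 in the interaction became 0.01 with the covariate. With a mouse left out, ranges that crossed 0 were −0.01 to 0.15 for Fbxo30, −0.06 to 0.09 for Fbxo31 and −0.06 to 0.14 for Foxo3 (HF to HF + LP), −0.15 to 0.06 for Foxo3 (NP to LP), −0.03 to 0.19 for Trim63 and −0.12 to 0.07 for Fbxo31 (LP to HF + LP), and −0.12 to 0.05 for Fbxo30 and −0.03 to 0.2 for Foxo3 (interaction). The negative value of Trim63 was the one without LP mouse 13. An unadjusted p under 0.05 was kept by Foxo3 (NP to HF) in 25 of 28 alternatives, Foxo1 (NP to LP) in 27 of 28, Fbxo32 (LP to HF + LP) in 21 of 28 and Fbxo31 (NP to HF) in 9 of 28. The 28 include fits without a mouse of a diet outside the comparison, which hardly move the fold change (−0.39 to −0.35 for Foxo3) and so test it little. Foxo3 lost it in the fits without HF mouse 3, NP mouse 3 or NP mouse 4. Of the 70 pathway genes, DESeq2 called 2 in HF against NP (Cdkn1a and Bnip3) and 2 in HF + LP against LP (Skp1a and Bnip3). Only the groups compared gave 1 call in HF against NP (Cdkn1a), as did an adjusted p under 0.05, also 1 (Cdkn1a). Of the 21 pairs, 1 passed without centring (Fbxo31 and Foxo3, r = 0.71), and the count ranged from 0 to 2 with single mice left out: 1 without NP mouse 4, 1 without LP mouse 13 and 2 without HF + LP mouse 5. The cause was not tested. The median of all genes moved by less than 0.1 under every scaling.

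Animal numbers shared between groups belong to different mice. Same-numbered mice of HF and NP had correlated deviations of −0.481 to 0.128 over 3 pairs, and of HF + LP and HF of −0.557 to 0.475 over 5 pairs, the 1 pair of LP and NP had 0.204, and the 2 pairs of HF + LP and LP had −0.019 and 0.374; in the first and second comparison 0 of 6 and 3 of 10 mice correlated best with their own number. Since no shared litter, batch or day is stated and the pairs were not all above 0.1, the numbers were not used to pair mice. With the animal number as a replicate block, 0 of the 6 genes were called in any comparison. Mice whose number occurs in no other group (NP mice 6 and 8, LP mice 13, 15 and 20) add nothing to the diet values of this fit. Those values therefore rest on fewer than 20 mice. Foxo3 was −0.6 from NP to HF (edgeR adjusted p = 0.138). Among the values that moved most with the block were those of LP against NP, which share 1 number, with Foxo3 at −0.62 (−0.03 without the block, edgeR adjusted p = 0.724 with it) and Fbxo30 at 0.58 (0.11 without, adjusted p = 0.784 with it), and the interactions of Foxo3 at 0.64 (0.08 without) and Fbxo30 at −0.5 (−0.03 without). From LP to HF + LP Fbxo30 was −0.23, Fbxo31 0.11, Foxo3 0.04, Traf6 −0.06, Cdkn1a 0.1, Acvr1b −0.16, Insr −0.62 and Irs1 −0.98, and from NP to LP Irs1 was 1.09 and Inhbb 2.03.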
